A study of Mus musculus with 24 samples.

Results

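The step from immature to mature B cells in the bone marrow was measured in mice with floxed Vhl alleles and Cre in their B lineage. It was followed in 8 RNA libraries, the mature and the immature B cells of 4 VHL flox/flox mice. The 8 libraries were taken by label, as all those named for the immature or the mature population of this genotype, out of 24 in the series. All mice, controls included, carried MB1 Cre +/WT, 1 allele that drives the Cre recombinase from the Mb1 (Cd79a) locus in B lineage cells. The flox/flox mice had both Vhl alleles floxed, and the control mice were VHL flox/WT, with 1 floxed and 1 wild-type allele. The series also holds a combined pro-B and pre-B population of both genotypes. It entered the filter on low counts, the scaling and the estimate of the spread, but no tested comparison. Its levels are set beside the others for a few genes only. Age, sex, strain background, treatment, the gates of the sort and the position of the lox sites are not given in the labels. Each mouse gave 1 immature and 1 mature library, so the comparison is paired by animal, with 4 mice in each genotype.

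Immature B cells are the first B lineage cells with a complete surface antigen receptor. They leave the marrow and mature in the spleen, and mature follicular B cells return to the marrow with the blood, so the mature marrow pool consists largely of recirculating cells that are not dividing. VHL is the substrate-binding subunit of a ubiquitin ligase that marks the hydroxylated alpha subunits of hypoxia-inducible factor (HIF) for destruction. In cells without VHL these subunits accumulate in normal oxygen and drive genes of glycolysis, mitophagy and adaptation to hypoxia. The comparison asks what changes between the 2 stages in B cells of mice bred to lose this control.

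Values are CPM, the counts of a gene scaled to the size of its library, with replicates given in the order of mice 1 to 4. Log2 changes are mature minus immature estimates with their standard error (SE), and a change was called at a Benjamini-Hochberg adjusted p under 0.05 in edgeR's quasi-likelihood test with the mouse as a block. The 8 libraries held 7850186 to 10263301 counts. Across genes, log2 CPM of immature libraries correlated with each other at 0.971 to 0.98, of mature libraries at 0.969 to 0.977, and of an immature with a mature library at 0.939 to 0.955. Vhl itself (chromosome 6, 113623994 to 113631634, GRCm38) measured 6.8, 3.07, 4.29 and 8.16 CPM in the immature and 8.37, 9.79, 5.39 and 6.85 CPM in the mature flox/flox libraries. The ranges overlapped, and the log2 change was 0.42 ± 0.26 (adjusted p = 0.244; two-sided exact permutation test over the signs of 4 mice, p = 0.25, where 0.125 is the smallest possible). Control mice had 35.5 ± 8.88 CPM in immature and 29.1 ± 2.81 CPM in mature cells (SD, n = 4 each). The counts cover the whole gene, so they do not measure the floxed part alone.

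The 2 population labels were checked against marker genes. Cd93, a surface marker of immature and transitional B cells, measured 91.9, 85.3, 113 and 104 CPM in immature and 22, 15.6, 20.1 and 14.9 CPM in mature cells, with no overlap (log2 change -2.45 ± 0.20, adjusted p = 6.3e-09). Cd24a fell as well (log2 change -1.43), while Rag1 and Rag2, which cut the antigen receptor genes, were low in both populations and did not pass the test (log2 changes -0.88 and -0.59). Without mouse 1, where it ran the other way, Rag1 was called (log2 change -1.15, adjusted p = 0.0191). Fcer2a, the low-affinity IgE receptor CD23 of follicular B cells, measured 269, 161, 242 and 242 CPM in immature and 1610, 1760, 1490 and 1770 CPM in mature cells. Its ranges did not overlap either (log2 change 2.86 ± 0.21, adjusted p = 6.26e-09). Cr2, Ccr7 and Cd55 rose too, by 3.04, 0.96 and 1.56 on the log2 scale. Of the genes that mark B cells of any stage, Cd79a (1607 ± 116 CPM immature and 1533 ± 156 CPM mature, SD, n = 4) and Ebf1 did not pass the test, whereas Cd79b (-0.48) and Pax5 (-0.75) fell. The pro-B and pre-B markers Dntt, Kit and Il7r had mean levels of 9.87 ± 1.44, 11.1 ± 3.42 and 9.63 ± 3.95 CPM in immature and 10.6 ± 2.01, 9.78 ± 5.43 and 12.2 ± 2.73 CPM in mature cells, and none of the 3 passed the test, while Igll1, a surrogate light chain, rose from 11.1 ± 4.35 to 23.8 ± 6.96 CPM (SD, n = 4).

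RNA of other marrow cells was present. The counts of called genes given here stand beside 13.7% of all genes tested that rose and 14.5% that fell. Of 23 tested neutrophil and monocyte genes 5 rose and 0 fell, and their summed level ran from 13400 to 18200 CPM in immature and from 14300 to 23200 CPM in mature libraries. S100a9 rose by 0.40 ± 0.13 (adjusted p = 0.0187, 0.177 without mouse 3 and 0.0603 without mouse 2) and S100a8 had a log2 change of 0.54 (adjusted p = 0.0565). The count of 5 was 10 without mouse 4 and 1 without mouse 2. Erythroid genes summed to 10300 to 19100 CPM in immature and 7840 to 21200 CPM in mature libraries, and 1 of 16 passed. Natural killer cell genes were low, at 38.6 to 48.4 CPM summed in immature and 69.6 to 91.9 CPM in mature libraries, and 4 of 15 rose. T cell genes summed to 239 to 267 and 335 to 406 CPM, with 3 of 17 higher, namely Zap70, Lck and Cd2. The defining marker Cd3e measured 4.8, 3.49, 4.05 and 2.01 CPM in immature and 3.19, 8.29, 6.66 and 6.36 CPM in mature cells and did not pass the test (adjusted p = 0.175), but was called without mouse 1 (log2 change 1.18, adjusted p = 0.049). Listed markers below the filter on low counts went both ways between the 4 immature and the 4 mature libraries. Gp6 and Gp9 of megakaryocytes went from 0 to 10 and from 13 to 35 counts, and Col3a1 of stroma from 0 to 19. Col1a1 and Pdgfrb of stroma fell from 45 to 12 and from 23 to 9 counts. Treml1 (8 and 9), Emcn (1 and 3) and Pdgfra (1 and 1) changed little. Megakaryocyte genes summed to 21.6 to 35.4 and 29 to 76.3 CPM (1 of 7 higher), stromal and endothelial genes to 241 to 260 and 243 to 301 CPM (0 of 11 called). In immature control libraries the neutrophil and monocyte, erythroid and natural killer lists summed to 9220 to 10900, 2570 to 8110 and 22.7 to 34.3 CPM. These sums were all below those of the immature flox/flox libraries. In mature control libraries they were 13000 to 20300, 3850 to 10800 and 39.8 to 54.3 CPM. Sums of the T cell, megakaryocyte and stromal lists overlapped between the genotypes. The part of these cells in the results below, differences between the genotypes included, was not tested. In bulk samples, fewer cells of a type and less RNA per cell cannot be told apart.

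Of 12850 genes tested, 1765 were higher in mature cells (13.7%) and 1868 were lower (14.5%), together 28.3%. These shares are the background for the counts of each gene list, above and below. The change exceeded 2-fold for 605 risers (4.71%) and 568 fallers (4.42%), and the median log2 change over all genes was 0.0069. The immature and mature libraries did not overlap for 3229 genes (25.1%). Of the 3633 called genes, 3404 had the direction of the fit in all 4 mice, a description only, since the same mice gave the calls.

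The 12 largest rises were taken among called genes whose mean log2 CPM was 3 or more and whose direction was the same in all 4 mice, and the 12 largest falls likewise. The top 2 rises were receptors of the cell surface. Il9r, the receptor chain for interleukin 9, measured 0.666, 1.67, 2.26 and 2.51 CPM in immature and 58, 110, 87 and 104 CPM in mature cells. Every mature library was far above every immature one (log2 change 5.64 ± 0.32, adjusted p = 1.69e-11). Ccr6, the receptor for the chemokine CCL20, went from 3.6, 3.49, 3.1 and 2.26 CPM to 108, 89, 142 and 133 CPM, again with a wide gap (log2 change 5.23 ± 0.23, adjusted p = 1.46e-13). Gpr183 encodes the oxysterol receptor EBI2, which places activated B cells in the follicle. It measured 21.2, 31, 24.8 and 25.8 CPM in immature and 292, 278, 364 and 253 CPM in mature cells (log2 change 3.53 ± 0.17). Gpr174, a lysophosphatidylserine receptor, rose from 9.31 ± 3.44 to 128 ± 37.6 CPM (SD, n = 4). Icosl, the ligand through which B cells engage ICOS on T cells, rose from 31.1 ± 10.6 to 337 ± 31.8 CPM.

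The rest of the 12 were genes of signalling, cell death and extracellular matrix. Stat4, a transcription factor downstream of interleukin 12, measured 15.9, 7.81, 16 and 16.4 CPM in immature and 190, 181, 195 and 205 CPM in mature cells. Nfatc2, a transcription factor activated by calcium signals, measured 2.4, 2.09, 3.81 and 4.14 CPM and then 33.4, 39.8, 34.7 and 36.9 CPM. Neither gene overlapped between the populations (log2 changes 3.80 ± 0.18 and 3.54 ± 0.27). Gimap4, a GTPase of the immunity-associated family, rose from 41.8 ± 2.05 to 564 ± 54 CPM, and Traf1, an adaptor of the TNF receptor family, from 3.3 ± 0.437 to 41.7 ± 7.93 CPM. Pmaip1, which encodes the death-promoting BH3-only protein NOXA, rose from 3.34 ± 1.06 to 51.3 ± 13.2 CPM. Nid1, a glycoprotein of basement membranes, measured 6.53, 9.77, 11.3 and 13.9 CPM in immature and 131, 110, 170 and 185 CPM in mature cells. In control mice Nid1 was at 39.8 ± 14.8 and 47.3 ± 9.3 CPM, so the mature flox/flox libraries lay above both control means and the immature ones below them. Chst10, a sulfotransferase of glycan chains, rose by 4.48 ± 0.20. The groups did not overlap for any of the 12, which follows in part from how they were chosen.

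The 12 largest falls were led by a gene of the respiratory chain. Cox6a2, a subunit isoform of cytochrome c oxidase best known from heart and muscle, measured 51.4, 65.3, 49.7 and 63.6 CPM in immature and 1.98, 5.6, 2.54 and 2.44 CPM in mature flox/flox cells (log2 change -4.22 ± 0.26, adjusted p = 7.5e-11). Its control means were 5.42 ± 2.36 and 2.63 ± 0.608 CPM in immature and mature cells. The combined pro-B and pre-B cells had means of 85.1 ± 11.7 CPM in flox/flox and 62.1 ± 14.7 CPM in control mice (SD, n = 4). Cox6a2 is also on the list of plasmacytoid dendritic cell markers, of which 3 of 15 fell and 1 rose. The defining marker of those cells on the list, Siglech, measured 6.26, 8.09, 13.7 and 16.2 CPM and then 6.49, 8.39, 13.3 and 9.29 CPM and did not pass the test. Slamf9, a receptor of the SLAM family, fell from 75.7 ± 7.46 to 5.94 ± 1.11 CPM and Itga9, an integrin chain, from 39.4 ± 10.7 to 4.68 ± 0.419 CPM. Bhlha15 encodes MIST1, a transcription factor of secretory cells. It measured 69, 66, 77.7 and 71.8 CPM in immature and 13.1, 7, 8.35 and 9.29 CPM in mature cells (log2 change -2.93 ± 0.19). Dusp10, a phosphatase of stress-activated kinases, fell from 102 ± 6.02 to 14 ± 5.05 CPM. Fam129c, a B cell gene, measured 305, 372, 389 and 358 CPM and then 56, 47.5, 41.3 and 61.4 CPM. Agbl1 (-3.69), Akap17b (-3.39), Slco5a1 (-3.25), Ppm1e (-3.05) and Hivep3 (-2.75) were also among the 12, given here with their log2 changes. The groups did not overlap for any of these either.

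**Figure D1:**
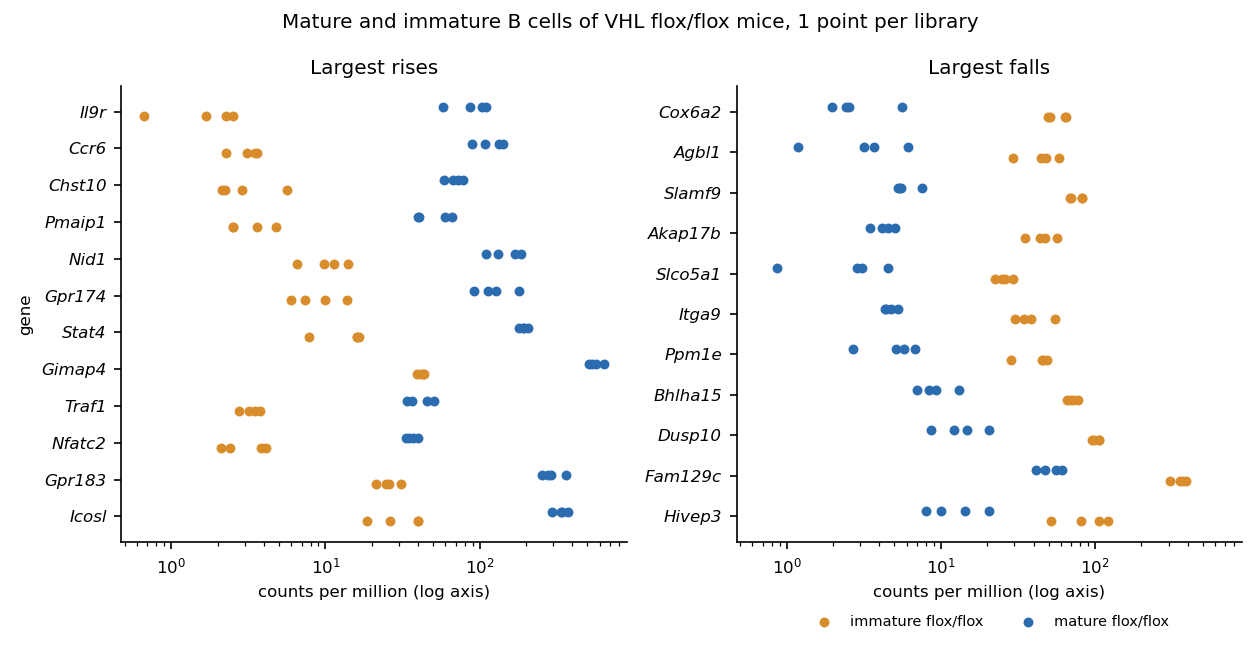
Level of the 12 genes with the largest rise (left) and of 11 of the 12 with the largest fall (right) between immature and mature B cells of flox/flox mice, in CPM on a log axis, with 1 point per library and 4 libraries per population. The orange immature and the blue mature points do not overlap for any gene shown.

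Antigen presentation on MHC class II was the list with the largest share of rises. Of 17 genes tested, 13 rose, 3 fell and 1 did not pass, with a median log2 change of 1.33 (all genes 0.0069). The promoters of H2-Aa and H2-Eb1 are shown because these genes of the 2 presenting chains had among the highest rises on the list. They were chosen after their values were seen. Each sequence is the 150 bases before the transcription start, 5′ to 3′, from RefSeq on GRCm38.p6 (chr17:34287824-34287973, minus strand, and chr17:34305717-34305866, plus strand). Capitals mark TGATTGG, the core of the Y box to which the factor NF-Y binds in class II promoters, and CCAAT, which that core holds on its other strand.
H2-Aa: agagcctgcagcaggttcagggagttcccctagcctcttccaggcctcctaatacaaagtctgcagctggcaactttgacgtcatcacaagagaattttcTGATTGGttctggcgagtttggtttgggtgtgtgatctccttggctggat
H2-Eb1: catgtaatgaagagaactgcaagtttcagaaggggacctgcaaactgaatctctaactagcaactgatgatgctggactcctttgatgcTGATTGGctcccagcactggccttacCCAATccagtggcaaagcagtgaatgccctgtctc
Searched on both strands of this window, TGATTGG was present for 8 of the 12 listed genes with a promoter entry (66.7%) and for 918 of 9706 tested genes with one (9.46%).

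H2-Aa, the alpha chain of the class II molecule I-A, measured 741, 648, 526 and 566 CPM in immature and 4260, 5250, 4550 and 4060 CPM in mature cells. H2-Eb1, the beta chain of I-E, measured 392, 307, 281 and 293 CPM and then 2440, 3000, 2250 and 2640 CPM. Both ranges were far apart (log2 changes 2.86 ± 0.16 and 3.01 ± 0.17, adjusted p = 9.47e-12 and 2e-11). H2-Ab1, the beta chain of I-A, rose from 1218 ± 98.8 to 5637 ± 1010 CPM (SD, n = 4) and H2-Eb2 by 2.86. Ciita, the co-activator on which class II transcription depends, measured 78.5, 50.9, 70.6 and 68.4 CPM in immature and 252, 276, 244 and 399 CPM in mature cells (log2 change 2.12 ± 0.17). Cd74, the invariant chain, rose by 0.91 ± 0.16 from 12030 ± 2010 CPM. The H2-DM and H2-O chains followed: H2-DMa rose by 0.83, H2-DMb1 by 1.67, H2-DMb2 by 1.47, H2-Oa by 1.31 and H2-Ob by 1.33. The protease gene Ctss rose by 0.94 and the ubiquitin ligase gene March1 by 1.76. Ifi30, a lysosomal thiol reductase, ran the other way, from 406, 422, 425 and 323 CPM to 183, 171, 189 and 156 CPM (log2 change -1.17 ± 0.11). Of the RFX factors that bind class II promoters, Rfx5 did not pass (0.10), while Rfxap (-0.52) and Rfxank (-0.43) fell, calls that were lost without mouse 3 (Rfxap, adjusted p = 0.0745) and without mouse 1 (Rfxank, adjusted p = 0.091). In control mice 13 of the 17 rose and 1 fell (median 1.48). The list summed to 15300 to 20100 CPM in immature and 38000 to 48400 CPM in mature flox/flox libraries. Control libraries held more at both stages, 22900 to 25800 and 53900 to 72700 CPM. The difference between the steps was positive for 2 of the 17, H2-Aa and H2-Eb1, with 0.89 ± 0.23 for H2-Eb1 (adjusted p = 0.0145, 0.0626 without control mouse 3). The difference for H2-Aa was 0.70 ± 0.21 (adjusted p = 0.0405), and leaving out any 1 of 6 mice (flox/flox 2, 3 or 4, control 1, 3 or 4) took it past 0.05, up to 0.127 without control mouse 3.

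Of 27 mature B cell markers 15 rose and 4 fell, and of 20 immature and transitional markers 14 fell and 4 rose. Among the mature markers Cr2, the complement receptor CD21, measured 45.7, 40.3, 56.6 and 37.6 CPM in immature and 384, 310, 412 and 373 CPM in mature cells. It was higher in every mature than in every immature library (log2 change 3.04 ± 0.16). The 4 that fell were Vpreb3, Ms4a1, Tnfrsf13c and Plac8. Vpreb3 measured 1310, 1020, 925 and 960 CPM in immature and 182, 190, 172 and 164 CPM in mature cells. The combined pro-B and pre-B flox/flox cells had 740, 663, 664 and 672 CPM. By these levels Vpreb3 was a gene of the earlier stages, although it was on the mature list. Ms4a1, which encodes CD20, fell with a log2 change of -1.50 ± 0.17, to 1812 ± 177 CPM, and Tnfrsf13c, the receptor for the survival factor BAFF, with a log2 change of -0.96 ± 0.09, to 418 ± 50.5 CPM. Among the immature markers Sox4 measured 134, 141, 136 and 145 CPM and then 23.6, 25.4, 14.7 and 29.5 CPM (log2 change -2.60 ± 0.15). Spib, an ETS family factor, fell from 2089 ± 309 to 655 ± 123 CPM, Rgs2, a regulator of G protein signalling, from 395 ± 44.1 to 81.7 ± 14 CPM and Akap12 had a log2 change of -2.68. The 4 immature markers that rose were Ms4a4c, Nr4a1, Socs3 and Cd9, and Ms4a4c rose from 39.4 ± 9.07 to 381 ± 74.8 CPM. The medians of the 2 marker lists were 0.533 and -0.844, and in control mice 0.58 and -1.41.

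Among receptors for chemokines, cytokines and adhesion more genes rose than fell. Of 23 chemokine and egress receptor genes, which include their regulators, 7 rose and 4 fell. Cxcr5, the receptor that draws B cells to follicles, measured 171, 167, 203 and 179 CPM in immature and 485, 447, 474 and 473 CPM in mature cells, without overlap (log2 change 1.39 ± 0.16). Ccr7, which guides cells to T cell zones, measured 330, 395, 295 and 363 CPM and then 655, 562, 645 and 821 CPM. S1pr1, the receptor for egress along sphingosine 1-phosphate, did not pass the test (589, 734, 502 and 557 CPM in immature, 748, 608, 601 and 570 CPM in mature cells). The number that fell was 2 without mouse 1 and 2 without mouse 3. Of 20 integrin and adhesion genes 5 rose and 1 fell. Itgb7, the chain that pairs with alpha 4 for homing to the gut, measured 75.4, 88.3, 87.7 and 101 CPM in immature and 550, 678, 433 and 562 CPM in mature cells (log2 change 2.65 ± 0.13), and Itga6 rose by 1.26. The 1 that fell, Icam1, was not called in 8 of 11 alternative fits. Of 25 cytokine receptors 11 rose and 2 fell. Il2rg, the chain common to several interleukin receptors, rose from 465 ± 49.7 to 1054 ± 119 CPM, Il6ra from 5.34 ± 1.63 to 22.6 ± 4.47 CPM and Ifngr1 by 0.75. Il2ra, the alpha chain of the interleukin 2 receptor, fell from 24.8, 16.7, 27.1 and 29.5 CPM to 6.72, 3.77, 4.65 and 3.54 CPM (log2 change -2.38 ± 0.26). Of 19 TNF family genes 6 rose and 2 fell. Lta, lymphotoxin alpha, rose from 6.95 ± 2.13 to 27.3 ± 3.66 CPM, and Tnfrsf13b, which encodes the BAFF and APRIL receptor TACI, fell from 150 ± 16.7 to 73.9 ± 19.4 CPM.

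In the signalling chain of the B cell receptor 9 of 29 genes rose and 4 fell, with a median of 0.00783. The rises included Rasgrp3, an activator of RAS, from 73 ± 15.4 to 274 ± 24 CPM, the kinase gene Fyn (1.01) and Cr2 and Nfatc2 (above). The 4 that fell were Lyn, Cd79b, Vav1 and Pik3ap1, and Lyn, the SRC family kinase that starts both activating and inhibitory signals, measured 1110, 801, 983 and 841 CPM in immature and 640, 519, 529 and 556 CPM in mature cells. Of 18 inhibitory coreceptors and their partners 4 rose and 7 fell. Cd22, a sialic acid receptor, rose by 0.65 ± 0.12, whereas Cd72 fell from 744, 513, 621 and 622 CPM to 233, 233, 189 and 216 CPM and Siglecg with a log2 change of -0.85 ± 0.10. The inhibitory list thus moved in both directions.

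Transcription factors of the B lineage fell more often than they rose, 11 against 5 of 25 (median -0.208). Among all genes 14.5% fell and 13.7% rose. Tcf3, which encodes the E2A proteins, measured 622, 536, 607 and 603 CPM in immature and 365, 385, 267 and 399 CPM in mature cells (log2 change -0.76 ± 0.12), and Spib (above) had the largest fall of the list. Bcl6, the factor that germinal centre B cells depend on, rose from 46 ± 12.4 to 118 ± 13.7 CPM and Ets1 from 1130 ± 67.5 to 1961 ± 133 CPM. Of 20 KLF and quiescence genes 8 fell and 2 rose. Klf2, which restrains division and controls homing, had 794 ± 83.7 CPM in immature and 977 ± 106 CPM in mature cells and did not pass (adjusted p = 0.0677, 0.0259 without mouse 1). Klf6 rose by 0.70 ± 0.12, and Cdkn1a, the cell cycle inhibitor p21, fell from 32.1, 21.5, 20.4 and 20.1 CPM to 12.5, 9.79, 10.3 and 10.1 CPM. Lef1, a partner of beta-catenin that is high in pro-B and pre-B cells, measured 27.2, 21.1, 23.1 and 27.6 CPM in immature and 69.2, 88.8, 69 and 65.6 CPM in mature cells (log2 change 1.57 ± 0.19, adjusted p = 1.59e-06). In control mice Lef1 fell, from 39.5 ± 4.66 to 16.5 ± 1.93 CPM, and the difference between the 2 steps was 2.83 ± 0.27 (adjusted p = 5.7e-07). Lef1 was thus called in opposite directions in the 2 genotypes.

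**Figure D2:**
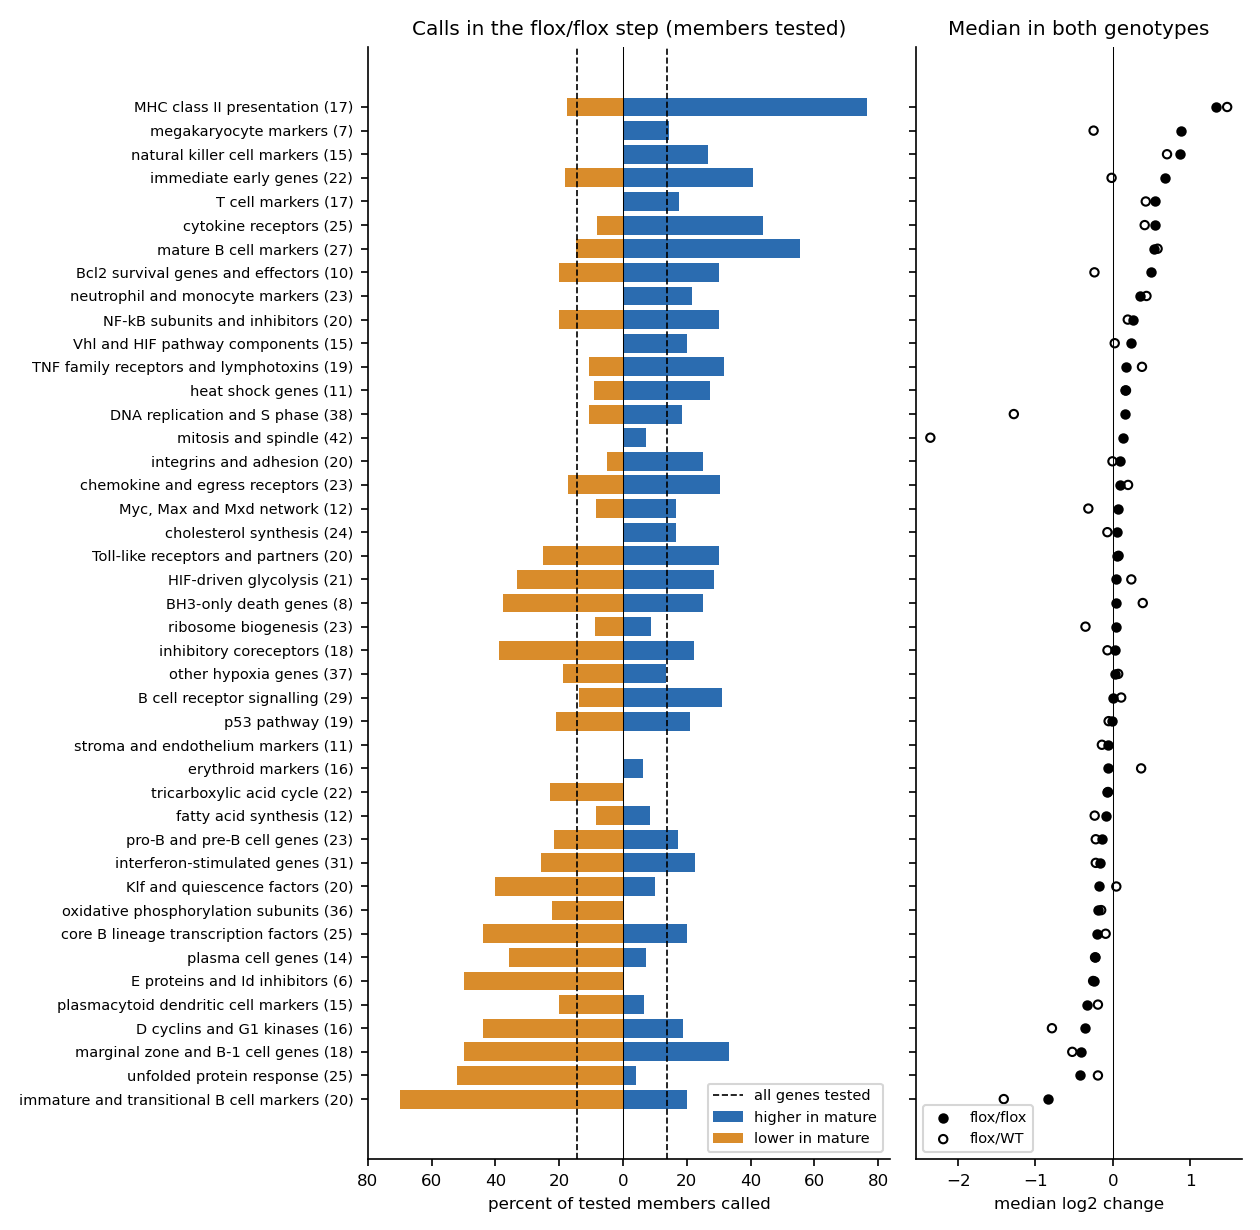
Percent of the tested members of each gene list called higher (blue) or lower (orange) in mature than in immature flox/flox cells, with the number tested in brackets and dashed lines at 13.7% and 14.5% for all genes (left), and the median log2 change of the same lists in both genotypes (right). MHC class II genes have the largest share of rises, immature markers the largest share of falls, and the mitosis and replication lists lie near 0 in flox/flox but far below 0 in flox/WT mice.

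Few genes of mitosis passed the test in the flox/flox step. Of 42 mitosis and spindle genes 3 rose and 0 fell, with a median log2 change of 0.135. The 3 were Spc25, Ndc80 and Pttg1. Spc25 and Ndc80 encode subunits of the NDC80 complex that ties chromosomes to the spindle. The promoter of Spc25 is shown as that of the mitosis gene with the largest called change. It holds CCAAT (in capitals, with CCAATCA as the other strand of TGATTGG) 2 times in the 150 bases before its start (RefSeq, GRCm38.p6, chr2:69206214-69206363, minus strand, 5′ to 3′). The bases after this RefSeq start were not found in the first part of a GENCODE transcript of Spc25, as they were for the other promoters printed.
Spc25: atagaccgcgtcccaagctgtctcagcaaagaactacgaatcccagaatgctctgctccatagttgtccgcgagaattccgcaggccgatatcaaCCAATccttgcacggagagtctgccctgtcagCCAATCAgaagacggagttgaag
CCAAT, on either strand of this window, was present for 24 of the 33 mitosis genes with an entry (72.7%) and for 3115 of 9706 tested genes with one (32.1%).

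Spc25 measured 12.9, 13, 13.8 and 18.7 CPM in immature and 18.5, 27.2, 26.3 and 20.2 CPM in mature cells, with ranges that overlapped (log2 change 0.66 ± 0.14, adjusted p = 0.00107). Ndc80 measured 17.2, 19, 19.2 and 18.3 CPM and then 27, 25.8, 25.8 and 28.6 CPM, without overlap. Pttg1, the securin that holds sister chromatids together, had a log2 change of 0.41 ± 0.13 (adjusted p = 0.0162), a call that was lost without mouse 2 (0.139) or mouse 3 (0.0722). The mitotic motor gene Kif11 measured 36.8, 20.9, 38.9 and 39.8 CPM in immature and 42.9, 37.3, 33.5 and 33.9 CPM in mature cells, which overlapped (log2 change 0.14 ± 0.21), and the cyclin gene Ccnb2 measured 33, 24.1, 36 and 32.1 CPM and then 37.9, 42.4, 33.3 and 29.2 CPM. Mki67 (0.24), Cdk1 (-0.04), Plk1 (-0.03) and Ccnb1 (0.26) did not pass either. Without mouse 4 the count of rises was 6.

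In the DNA replication list, 7 of 38 genes rose and 4 fell (median 0.152), where 13.7% of all genes rose and 14.5% fell. Prim1, the catalytic primase subunit, measured 12.3, 12, 14.1 and 17.3 CPM in immature and 23.6, 24.3, 19.3 and 24.2 CPM in mature cells (log2 change 0.72 ± 0.16), and Pold1, the catalytic subunit of polymerase delta, measured 363, 423, 397 and 397 CPM and then 295, 345, 190 and 275 CPM (log2 change -0.54 ± 0.11). The helicase gene Mcm6 and the topoisomerase gene Top2a did not pass (0.22 and 0.03). The 4 that fell were Pold1, Rfc3, Fen1 and E2f1, and the number was 2 without mouse 3 and 2 without mouse 4. The 7 rises became 2 without mouse 1, 1 without mouse 2 and 3 without mouse 3. Of 16 D cyclins and G1 genes 7 fell and 3 rose. Ccnd2, the cyclin D2 gene, measured 271, 223, 262 and 241 CPM in immature and 104, 99.9, 120 and 103 CPM in mature cells (log2 change -1.22 ± 0.16), and Ccnd3 fell by 0.73 ± 0.14. Rb1 fell from 156 ± 23.2 to 98.4 ± 16.4 CPM. The 3 rises of this list were 1 when any flox/flox mouse was left out.

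The step differed between the genotypes for these genes. In control mice 41 of the 42 mitosis genes fell and 1 rose (median -2.36), and 36 of the 38 replication genes fell (median -1.28). The difference of the 2 steps, which share no library, was positive for 41 mitosis and 34 replication genes and negative for 0, against 5.88% positive and 2.58% negative of all genes. For Kif11 it was 3.29 ± 0.30 (adjusted p = 5.7e-07) and for Top2a 3.21 ± 0.37 (adjusted p = 2.19e-05). Levels show where the genotypes parted. Kif11 had 159 ± 31.4 CPM in immature and 18.5 ± 6.36 CPM in mature control cells, against 34.1 ± 8.86 and 36.9 ± 4.37 CPM in flox/flox cells (SD, n = 4 each). The mean log2 CPM of the mitosis list was 4.37, 4.19, 4.58 and 4.67 in immature and 4.81, 4.8, 4.51 and 4.35 in mature flox/flox libraries, against 5.89, 5.99, 6.39 and 6.39 and then 4.32, 4.27, 3.46 and 3.59 in control libraries. Of these 4 groups the immature control libraries were thus the highest, and every mature flox/flox library was above every mature control library. Within both mature groups mice 1 and 2 were above mice 3 and 4. The neutrophil and monocyte list also had mice 1 and 2 above mice 3 and 4, at 8.21, 8.12, 7.72 and 7.49 in mature flox/flox and 8, 7.71, 7.29 and 7.19 in mature control libraries, and its part in the mitosis levels was not tested. Ccnd2 fell in both genotypes but from 487 ± 63.1 to 36.2 ± 11.7 CPM in controls, a difference of 2.53 ± 0.23 (adjusted p = 1.65e-07).

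**Figure D3:**
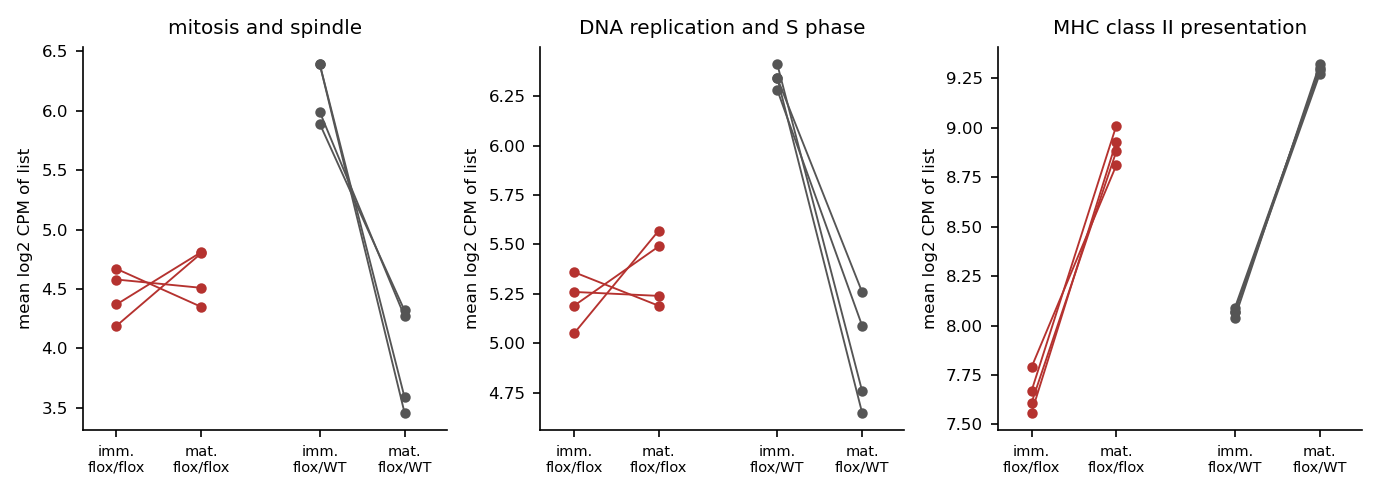
Mean log2 CPM of the members of 3 gene lists in each library, with a line joining the immature (imm.) and mature (mat.) library of 1 mouse, flox/flox in red and flox/WT in grey. The mitosis and replication lists fall in all 4 control mice and change far less in the flox/flox mice, while the MHC class II list rises in all 8 mice.

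Targets of HIF were high in both flox/flox populations, and some were called in each direction between them. The glycolysis list summed to 32100 to 34500 CPM in immature and 22300 to 29100 CPM in mature flox/flox libraries, against 3750 to 4280 and 3810 to 4870 CPM in control libraries. Of its 21 genes 6 rose and 7 fell (median 0.0401), and 8 did not pass. Ldha, lactate dehydrogenase A, measured 5360, 5570, 4740 and 5300 CPM in immature and 3190, 3410, 3080 and 3210 CPM in mature cells, without overlap (log2 change -0.70 ± 0.09, adjusted p = 1.68e-06). Tpi1, triose phosphate isomerase, measured 4430, 3520, 4000 and 3650 CPM and then 2480, 2430, 2080 and 2550 CPM, and Pgk1, phosphoglycerate kinase, 1880, 2300, 1840 and 1910 CPM and then 1420, 1570, 1080 and 1380 CPM. Pgam1 (-0.37), Eno1 (-0.41), Pkm (-0.52) and the lactate exporter gene Slc16a3 (-0.46) completed the 7. Slc2a3, the glucose transporter GLUT3, measured 214, 243, 232 and 255 CPM in immature and 387, 368, 344 and 333 CPM in mature cells (log2 change 0.60 ± 0.10), and Slc2a1, GLUT1, rose by 0.50. Pfkfb4, which makes the activator of phosphofructokinase, rose from 14.8 ± 3.06 to 31.5 ± 6.07 CPM and Hk1 by 0.59. The calls of Hk2 (0.44) and Pfkl (0.45) were lost without single mice, up to an adjusted p of 0.0633 without mouse 3 for Hk2 and 0.122 without mouse 2 for Pfkl. Aldoc, aldolase C, did not pass (371, 347, 339 and 357 CPM in immature, 366, 382, 347 and 358 CPM in mature cells).

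Of 37 other hypoxia genes 5 rose and 7 fell (median 0.0235), near the shares of all genes (13.7% and 14.5%). Ndrg1 measured 153, 117, 128 and 121 CPM in immature and 191, 208, 216 and 239 CPM in mature cells (log2 change 0.72 ± 0.14), and fell in control mice from 17 ± 4.88 to 9.77 ± 2.3 CPM. The difference of the steps was 1.51 ± 0.22 (adjusted p = 5.98e-05). Hilpda, a lipid droplet protein gene, rose from 38.8 ± 9 to 82 ± 21 CPM. P4ha2, a prolyl hydroxylase of collagen, measured 2.93, 6, 2.03 and 4.77 CPM in immature and 10, 8.72, 8.77 and 12.5 CPM in mature cells (log2 change 1.38 ± 0.32). Its promoter is shown because its change was the largest of a called hypoxia or KLF gene with an entry. Capitals mark ACGTG, the core to which HIF binds (150 bases before the start, 5′ to 3′, RefSeq, GRCm38.p6, chr11:54100774-54100923, plus strand).
P4ha2: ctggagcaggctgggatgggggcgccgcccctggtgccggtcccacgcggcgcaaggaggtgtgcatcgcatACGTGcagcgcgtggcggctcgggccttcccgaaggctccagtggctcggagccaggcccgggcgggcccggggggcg
ACGTG, on either strand of this window, was present for 10 of 20 glycolysis genes with an entry (50%), 11 of 27 other hypoxia genes (40.7%) and 1684 of 9706 tested genes (17.4%). Ndufa4l2 (2.07) and Gbe1 (0.34, adjusted p 0.26 without mouse 3) also rose. Bnip3l, a receptor of mitophagy, fell from 1360, 1300, 1140 and 1190 CPM to 996, 962, 948 and 878 CPM, and Ankrd37 from 408, 454, 372 and 394 CPM to 216, 214, 213 and 232 CPM. Plod2, a lysyl hydroxylase of collagen, fell from 81.5 ± 11.7 to 44.7 ± 1.81 CPM. Ak4, Narf, Fam162a and Selenbp1 fell as well, with log2 changes of -0.41, -0.41, -0.38 and -0.53. Of these, Ak4 was not called when any 1 mouse was left out (adjusted p up to 0.169, without mouse 3), Fam162a not without mouse 1 (0.0788) or 2 (0.0714), and Selenbp1 not without mouse 3 (0.0832) or 4 (0.111). Bnip3 and Egln3, both strong HIF targets, did not pass: Bnip3 had 1243 ± 115 and 1294 ± 142 CPM, Egln3 180 ± 24.8 and 176 ± 17.9 CPM. Among 15 genes of the VHL and HIF machinery 3 rose and 0 fell. Hif3a, an HIF subunit of low level, measured 0.133, 1.81, 1.79 and 1.13 CPM and then 7.05, 5.6, 7.08 and 8.19 CPM. The calls of Egln2 (0.38) and Epas1 (1.75), which encodes HIF-2 alpha, were lost without mouse 2 (adjusted p 0.0916 and 0.129) or mouse 4 (0.0959 and 0.0529), and that of Epas1 also without mouse 1 (0.137) or 3 (0.0787).

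Some nuclear genes of mitochondrial metabolism fell, by small amounts. Of 36 nuclear genes of oxidative phosphorylation 8 fell and 0 rose (median -0.187), where 14.5% of all genes fell. The count was 5 without mouse 1 and 4 without mouse 4. Atp5c1, a subunit of ATP synthase, measured 397, 443, 345 and 365 CPM in immature and 283, 289, 278 and 237 CPM in mature cells, without overlap. Of 22 tricarboxylic acid cycle genes 5 fell and 0 rose. Sdhd, a subunit of succinate dehydrogenase, fell from 209 ± 24 to 137 ± 9.13 CPM and Idh2 from 62.9 ± 3.96 to 44.4 ± 7.08 CPM. In control mice 8 and 5 genes of the 2 lists fell and 0 rose, and no gene of either list passed the test of the difference.

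Genes of the unfolded protein response, which fits the folding capacity of the endoplasmic reticulum to its load, fell in the main. Of 25 genes 13 fell and 1 rose (median -0.418). Xbp1, the transcription factor of one branch, measured 509, 422, 410 and 410 CPM in immature and 246, 265, 241 and 184 CPM in mature cells (log2 change -0.91 ± 0.11, adjusted p = 1.24e-06). The chaperone genes Calr and Hspa5 went from 731 ± 63.3 to 473 ± 41.8 CPM and from 1119 ± 266 to 772 ± 127 CPM. Hyou1 (-1.08), Sdf2l1 (-0.95), Edem1 (-0.93), Hsp90b1 (-0.74), Manf (-0.73) and the disulfide isomerase gene Pdia6 (-0.68) fell as well. The 1 that rose, Trib3, was not called when any 1 mouse was left out. In control mice 7 of the 25 fell and 0 rose (median -0.192), and the difference of the steps was negative for 4, Xbp1, Calr, Manf and Hyou1. That of Hyou1 was not called with only the groups compared (adjusted p = 0.0521) or without flox/flox mouse 1 (0.0516), 2 (0.0566) or 3 (0.083). For Xbp1 it was -0.72 ± 0.16 (adjusted p = 0.00417).

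Some genes of lipid synthesis were called, where 13.7% of all genes rose and 14.5% fell. Of 24 cholesterol genes 4 rose, among them Idi1, Cyp51 and Sqle, and 0 fell. Sqle, the epoxidase of the pathway, rose from 5.43 ± 1.72 to 17 ± 3.56 CPM (SD, n = 4). Of 12 fatty acid genes Elovl5, an elongase, rose by 0.73 ± 0.10 and Scd2, a desaturase, fell by 1.15 ± 0.12.

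Genes that set the threshold for cell death moved on both sides. Bcl2, which blocks death and is induced as B cells mature, measured 25.6, 39.1, 35.6 and 48.1 CPM in immature and 165, 169, 196 and 183 CPM in mature cells, with no overlap (log2 change 2.28 ± 0.15, adjusted p = 1.07e-10). In control mice Bcl2 had 93.2 ± 8.99 and 115 ± 20.9 CPM and did not pass, and the difference of the steps was 1.98 ± 0.21 (adjusted p = 1.04e-06). Immature flox/flox libraries were thus the lowest and mature flox/flox libraries the highest of the 4 groups. Of 10 survival genes and effectors 3 rose and 2 fell. Bcl2a1b (0.91) and Bcl2a1d (1.03) rose, 2 near-identical copies whose reads the counting could split, so each is uncertain. Bcl2a1d was not called without mouse 3 (adjusted p 0.0551). Mcl1, another blocker of death, fell from 1640, 1610, 1580 and 1580 CPM to 1210, 906, 1140 and 1000 CPM. Bcl2l1, which encodes BCL-XL, had a log2 change of -0.46, not called without mouse 1 (0.121), 3 (0.084) or 4 (0.251). Of 8 BH3-only genes, which promote death, 2 rose and 3 fell. Bbc3, which encodes PUMA, measured 1.87, 2.23, 2.62 and 2.63 CPM in immature and 7.49, 13.6, 15.2 and 11.1 CPM in mature cells (log2 change 2.31 ± 0.25). Its control means were 4.32 ± 0.339 and 4.2 ± 0.967 CPM, and the difference was 2.36 ± 0.35 (adjusted p = 7.92e-05). Pmaip1 was the other that rose (above), and Bmf (-1.18), Bad (-0.83) and Bnip3l fell. Bcl2l11, which encodes BIM, did not pass (0.02). Of 19 genes of the p53 pathway, to which Bbc3 and Pmaip1 also belong, 4 rose and 4 fell. Rrm2b (-1.42) and Trp53inp1 (-1.35) were among those that fell.

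**Figure D4:**
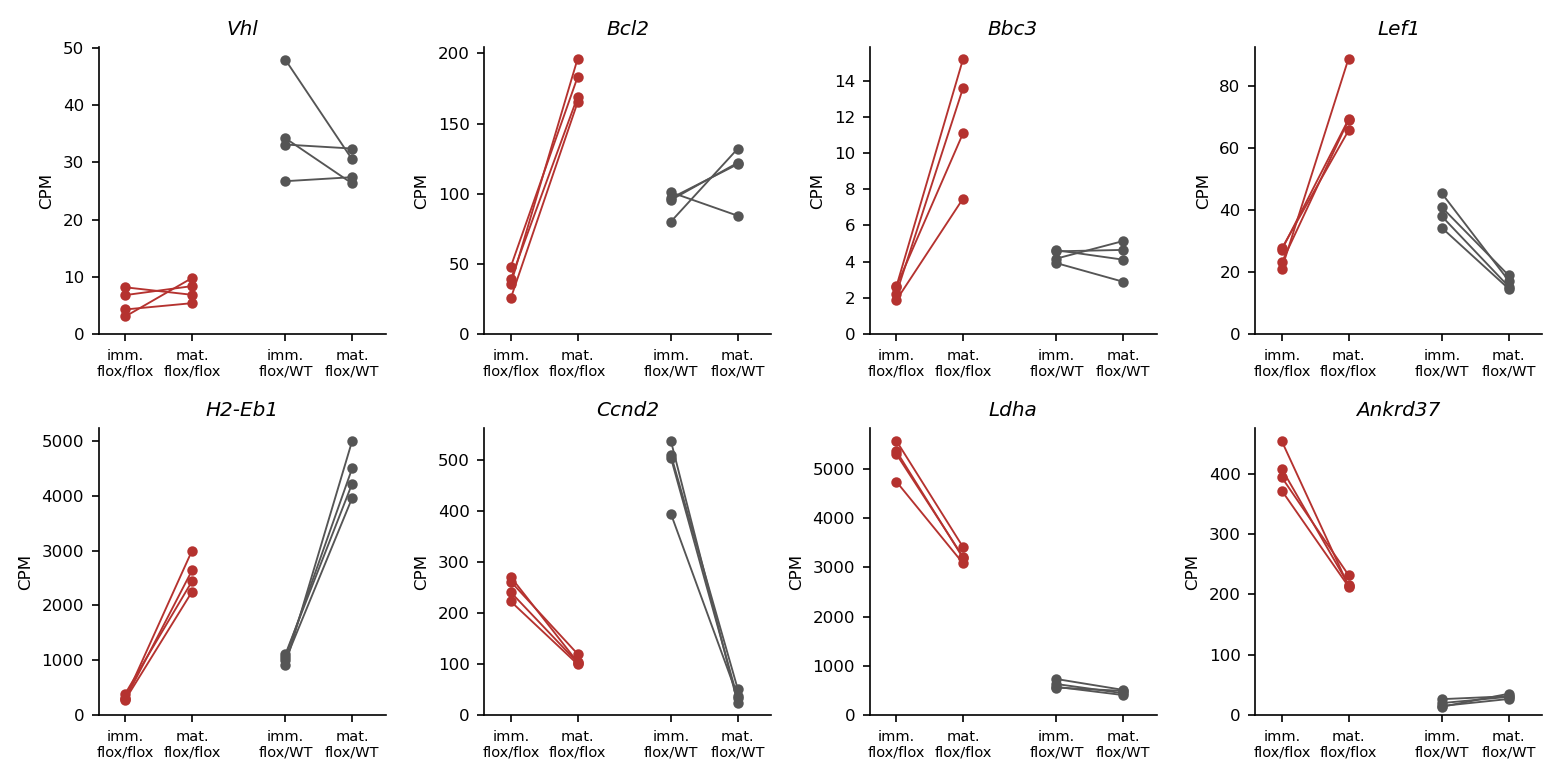
CPM of 8 genes in each library, with a line joining the immature (imm.) and mature (mat.) library of 1 mouse, flox/flox in red and flox/WT in grey. Bcl2, Bbc3 and Lef1 rise in all 4 flox/flox mice, H2-Eb1 rises and Ccnd2 falls in all 8 mice, and Ldha and Ankrd37 fall in flox/flox mice from levels far above those of the controls.

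Over all genes the 2 steps shared much. In control mice 2116 genes rose (16.5%) and 2320 fell (18.1%). The flox/flox and control steps were called in the same direction for 2112 genes and in opposite directions for 90, while 1431 were called in flox/flox mice only and 2234 in control mice only. The log2 changes of the 2 steps correlated across the 12850 genes at r = 0.545, a description over genes, which are not independent. The difference itself passed the test for 1088 genes (8.47%), 756 positive (5.88%) and 332 negative (2.58%). The count of negative differences depended on single mice: it was 213 without flox/flox mouse 1, 215 without control mouse 2, 192 without control mouse 3 and 216 without control mouse 4. Of the 756 positive differences 560 fell in the control step, 432 of them without a call in the flox/flox step, and 252 rose in the flox/flox step. Of the 332 negative differences 177 fell in the flox/flox step and 176 rose in the control step.

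The 10 positive differences with the smallest adjusted p were led by Nid1 (above), at 3.56 ± 0.27 (adjusted p = 4.28e-08). Several of the 10 act in division or DNA repair. Shcbp1, a protein of the midbody, measured 9.46, 15.2, 14.5 and 16.8 CPM in immature and 17.5, 17.6, 16.4 and 14.9 CPM in mature flox/flox cells, against 53.7 ± 5.25 and 7.62 ± 2.08 CPM in control cells (difference 3.07 ± 0.24). Brip1, a helicase of DNA repair, had 11.8 ± 3.58 and 11.8 ± 2.86 CPM against 41.9 ± 4.32 and 4.75 ± 1.83 CPM (difference 3.16 ± 0.27). Of these 4 groups the immature control cells held the highest level of both genes, below the combined pro-B and pre-B cells. Trip13 (2.45 ± 0.20), Spc25 (2.38 ± 0.20) and Esco2 (2.84 ± 0.24) were also highest in immature control cells among these 4 groups. Tcf19 followed, at 2.49 ± 0.22. Bhlhe40 encodes a repressor that is itself induced by hypoxia. It measured 130, 101, 109 and 105 CPM in immature and 116, 108, 125 and 123 CPM in mature flox/flox cells, whereas control cells went from 101 ± 20.3 to 20.9 ± 2.16 CPM (difference 2.34 ± 0.19). Wnt10a, a secreted WNT ligand, fell in both, from 72.9 ± 14.3 to 27.5 ± 7.94 CPM in flox/flox and from 82.4 ± 22 to 2.34 ± 1.29 CPM in control cells (difference 3.70 ± 0.32).

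The 10 negative differences included HIF targets that were far higher in flox/flox cells of both stages. Aldoc rose in control mice from 3.06 ± 0.924 to 14.4 ± 2.13 CPM while the flox/flox step did not pass, a difference of -2.14 ± 0.21 (adjusted p = 3.87e-07). Ankrd37 (-1.63 ± 0.23) and Bnip3l (-1.0 ± 0.14) fell in flox/flox and rose in control mice. Bnip3l had 163 ± 12.7 and 248 ± 22.2 CPM in control cells. Cxxc5, a zinc finger protein gene, also moved in opposite directions, from 223, 212, 183 and 177 CPM to 136, 142, 102 and 111 CPM in flox/flox cells and from 139 ± 20.5 to 166 ± 15.1 CPM in control cells (difference -0.96 ± 0.13). Fcrla, an intracellular Fc receptor-like protein of B cells, fell from 707, 781, 609 and 635 CPM to 313, 328, 321 and 329 CPM in flox/flox cells, against 429 ± 50.7 and 452 ± 26.1 CPM in control cells (difference -1.16 ± 0.14). The flox/flox step crossed the control level, with immature libraries above and mature libraries below it. B3gnt8 (-1.10 ± 0.16) and Cdc42ep3 (-1.16 ± 0.17) likewise fell in flox/flox mice without a call in control mice. Bcl7a fell in both (-2.05 in flox/flox, -0.75 in control mice), and Pxdc1 (1.06 and 2.53) and Neurl3 (0.78 and 1.90) rose in both, less in flox/flox mice. The differences of these 3 were -1.31 ± 0.19, -1.47 ± 0.16 and -1.12 ± 0.16. Cox6a2 and Il9r, first among the falls and rises above, differed too, by -3.21 ± 0.42 (adjusted p = 2.19e-05) and 2.39 ± 0.42 (adjusted p = 0.000585).

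**Figure D5:**
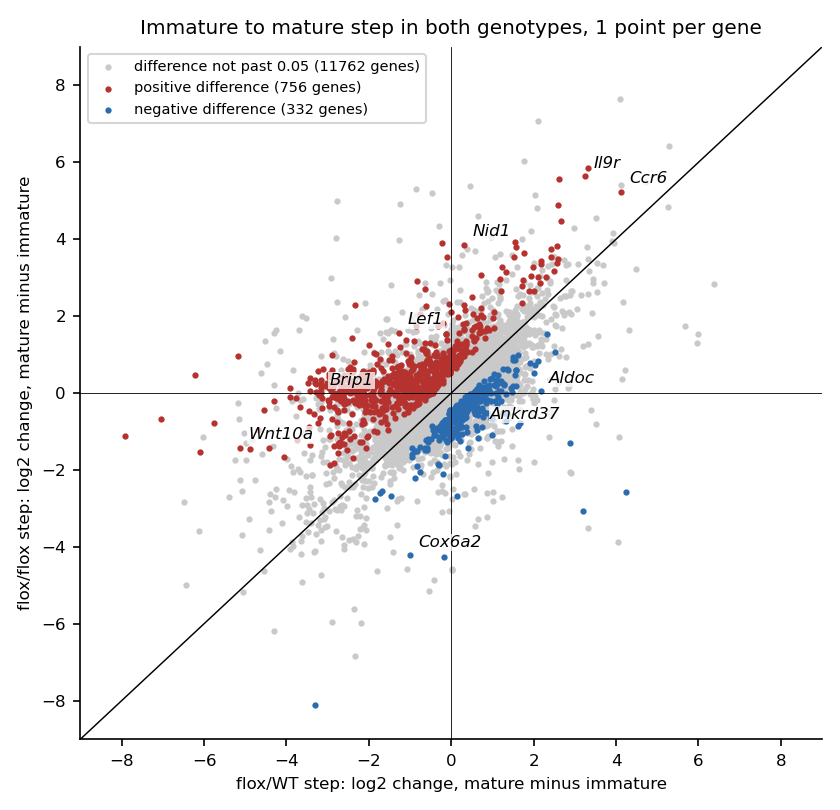
Log2 change of 12850 genes between immature and mature cells in flox/WT mice (horizontal) and flox/flox mice (vertical), with the diagonal of equal change, and genes whose difference passed an adjusted p of 0.05 in red (756 positive) or blue (332 negative). Many red points lie left of 0 and near the horizontal line, genes that fell in control mice and changed little in flox/flox mice.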

How the data were processed

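RNA from sorted bone marrow B cells was made into libraries with a SMARTer low-input kit, per the labels. The authors deposited raw counts per gene. The submitters' processing notes name CASAVA, FastQC, Trim Galore, HISAT2, featureCounts, DESeq2 and the mm10 build. The sources used here give no versions and do not say whether counting used strand, so overlapping and antisense genes cannot be told apart. A deposited table of normalized counts was not used. All 24 libraries (7850186 to 11863949 counts) entered 1 model in edgeR 4.0.16 (R 4.3.3), which used TMM factors, the default expression filter (12850 of 24421 genes), a robust quasi-likelihood model with the mouse as a block and population within genotype, and Benjamini-Hochberg adjustment over all genes. No sample was dropped or imputed. The table holds 0 immunoglobulin segments and 0 mitochondrial genes, which are not analysed here. Some genes picked out by the naming rule are not reported here.

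The mouse pairs the samples because the immature and mature library of a number come from the same animal. Deviations from the group means correlated at 0.0612, 0.185, 0.0514 and 0.0334 in the 4 flox/flox pairs and at 0.162, -0.0195, 0.0889 and 0.119 in the 4 flox/WT pairs. The mature library that an immature one matched best was of the same animal only for flox/flox mouse 2 and flox/WT mouse 1. No 2 libraries of a group agreed within sampling noise (lowest chi-square per degree of freedom 10.4). P-values rest on separate mice. The members and the 43 gene lists were chosen with earlier results of these data known. Named genes are Vhl, the 12 largest called rises and falls whose mean log2 CPM was 3 or more and whose direction was the same in all 4 mice, up to 5 called members of each list with the smallest adjusted p, members needed to account for a list, and the 10 differences in each direction with the smallest adjusted p. Any other member named was chosen after its values were seen. The model was tested on simulated data. Alternatives were RLE size factors, no filter, at least 10 CPM in 4 libraries, only the groups compared, no replicate block, DESeq2 1.42.0, limma-voom (limma 3.58.1) and leaving out each mouse. Promoters and positions are from RefSeq (GRCm38.p6).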

Additional observations from a re-analysis of the deposited data

Results flagged for a closer look

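In 10 of 114 groups of 4 libraries with printed levels, 1 library stood far from the other 3 by Dixon's criterion at the 95% level, which chance flags in about 1 of 20 groups. In immature flox/flox cells these were Kif11 in mouse 2 (20.9 CPM), Stat4 in mouse 2 (7.81 CPM), Pgk1 in mouse 2 (2300 CPM), Cdkn1a in mouse 1 (32.1 CPM), Xbp1 in mouse 1 (509 CPM) and Spc25 in mouse 4 (18.7 CPM). In mature flox/flox cells they were Cox6a2 in mouse 2 (5.6 CPM), Lef1 in mouse 2 (88.8 CPM), Prim1 in mouse 3 (19.3 CPM) and Ankrd37 in mouse 4 (232 CPM). Each of these genes that passed the test of the step also passed it without the mouse named.

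The step itself differed between the genotypes, by edgeR's test of the difference at an adjusted p under 0.05, for 756 genes in the positive and 332 in the negative direction, among them 41 of 42 mitosis and 34 of 38 replication genes. Positive log2 differences in genes of division, replication and repair were 3.29 (Kif11), 3.21 (Top2a), 3.16 (Brip1), 3.07 (Shcbp1), 2.84 (Esco2), 2.53 (Ccnd2), 2.49 (Tcf19), 2.45 (Trip13) and 2.38 (Spc25). Other positive differences were 3.70 (Wnt10a), 3.56 (Nid1), 2.83 (Lef1), 2.39 (Il9r), 2.36 (Bbc3), 2.34 (Bhlhe40), 1.98 (Bcl2), 1.51 (Ndrg1), 0.89 (H2-Eb1) and 0.70 (H2-Aa). Negative differences were -3.21 (Cox6a2), -2.14 (Aldoc), -1.63 (Ankrd37), -1.47 (Pxdc1), -1.31 (Bcl7a), -1.16 (Fcrla), -1.16 (Cdc42ep3), -1.12 (Neurl3), -1.10 (B3gnt8), -1.0 (Bnip3l), -0.96 (Cxxc5) and -0.72 (Xbp1).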

How the results depend on the processing

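The counts of the flox/flox step stayed within 1.5 times of those reported in all 11 alternatives. They were lowest in total without mouse 4 (2757 genes against 3633). Over these fits 1372 to 1925 genes were higher and 1385 to 1939 lower, and no gene called in the reported fit was called in the opposite direction. The 13 rises among MHC class II genes were 13 in each of these fits, and Vhl stayed without a call (log2 change 0.108 to 0.691, adjusted p 0.0889 to 0.794). The number of positive differences between the genotypes ranged from 570 to 927 over 15 alternatives, with 37 to 41 mitosis and 32 to 34 replication genes among them. The number of negative differences (332) moved by over 1.5 times when some single mice were left out, and by less for others. Without 1 flox/flox mouse it was 213 to 254, lowest without mouse 1, and without 1 flox/WT mouse 192 to 481, with 215 without mouse 2, 192 without mouse 3, 216 without mouse 4 and 481 without mouse 1. These fits hold fewer samples. Without the replicate block for the mouse, 1663 genes were higher and 1748 lower, and 3327 of the 3633 calls were shared. The difference then gave 708 positive and 287 negative genes, with 945 of 1088 calls shared. Over the alternatives, 108 values of single named genes lost their call in the flox/flox step, 8 gained one and 2376 kept their side of the threshold. In the difference 73 lost it, 33 gained one and 3309 kept their side. None changed direction with a call. Depth limits genes near a few CPM, where 3 counts, the limit that a count of 0 allows, correspond to 0.292 to 0.382 CPM.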

Other observations

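Genes of response and activation moved in both directions in the flox/flox step. Of 22 immediate early genes 9 rose and 4 fell (median 0.68, in control mice -0.0155). Nr4a1, a nuclear receptor induced by antigen receptor signals, measured 7.33, 13.1, 13.4 and 10.2 CPM in immature and 25.3, 37.9, 56.8 and 54 CPM in mature cells (log2 change 1.95 ± 0.18), and Cd69, an early activation marker, rose from 27.8 ± 2.59 to 135 ± 40.9 CPM. Dusp2, a phosphatase that ends kinase signals, fell from 511 ± 60.5 to 183 ± 21.8 CPM. Of 20 NF-kB genes 6 rose and 4 fell, and Nfkbid fell from 301 ± 61.1 to 88.8 ± 9.94 CPM. Of 20 Toll-like receptor genes 6 rose and 5 fell. Irak3, which restrains these receptors, rose by 1.15 ± 0.11, and Tlr9, which senses DNA, fell by 1.36 ± 0.22. Of 31 interferon-stimulated genes 7 rose and 8 fell. Ddx58, the RNA sensor RIG-I, fell from 260 ± 18.7 to 156 ± 7.16 CPM. Ifi27l2a had a log2 change of -0.83, with an adjusted p of 0.000512 that was 0.105 without the mouse as a block. The 8 falls of this list were 5 without mouse 1, 3 or 4.

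Lists tied to other B cell fates held called genes in both directions, where 13.7% of all genes rose and 14.5% fell. Of 18 marginal zone and B-1 cell genes 6 rose and 9 fell, and of 23 pro-B and pre-B cell genes 4 rose and 5 fell. The plasma cell list leaned down, with 1 rise and 5 falls among 14 genes (median log2 change -0.232). Among 23 ribosome biogenesis genes 2 rose and 2 fell, and in control mice 11 fell. Of 12 genes of the MYC network 2 rose and 1 fell, of 11 heat shock genes 3 rose and 1 fell, and of 6 E protein and Id genes 3 fell. Among the pro-B and pre-B genes Igll1 (log2 change 1.12 ± 0.27, adjusted p = 0.00409) and Lef1 rose, and Sox4 fell. Lyz1, a lysozyme of myeloid cells, had a log2 change of 0.74, and the natural killer cell genes Tbx21, Prf1, Klrd1 and Ncr1 rose by 2.58, 1.95, 1.35 and 1.33. Of these, Ncr1 was not called without mouse 1 (adjusted p 0.0824), 2 (0.152) or 3 (0.247).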
